A study of Mus musculus with 3 samples.

Results

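The nuclear receptor family was examined in mouse skin epithelial cells that were sorted for integrin alpha6 and for the absence of Sca1. The family was taken as 40 receptor genes, named by their symbols, and all 40 were found among the 44625 gene entries of the table. Polyadenylated RNA had been sequenced from 3 libraries of 1 group. The group consisted of wild-type (WT) mice aged 56 days, with the hair cycle in its second resting phase (telogen), and the cells were taken from back skin by trypsin digestion and flow sorting. The labels name an antibody to integrin alpha6 but none to Sca1, and they speak of duplicates while there are 3 libraries, so every SD below measures the spread between these libraries, which may be partly technical. No second group was analysed here, and fold changes against libraries headed "Bulge" are those the authors deposited.

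Nuclear receptors are transcription factors that bind DNA through a pair of zinc fingers and carry a pocket for small lipid-soluble ligands such as steroids, retinoids, thyroid hormone and vitamin D. Many of them act as dimers with a retinoid X receptor (RXR), while others, called orphans, have no settled hormone. In skin the vitamin D receptor, the retinoid receptors and the corepressor Hairless are known for their roles in hair follicle cycling, and PPAR and LXR receptors for lipid handling. The NR4A receptors differ from the rest in being induced within minutes of a stimulus, as immediate early genes.

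Promoter sequences are shown for 2 sets of members on which the results below turn. They come from RefSeq on GRCm38.p6, 5′ to 3′, and end where transcription starts or where an annotated exon begins. The first set holds the NR4A receptors, shown because their levels were read beside those of immediate early genes. Capitals mark TGACG or its reverse complement, the core of the cyclic AMP response element, searched on both strands with overlaps counted. The windows are chr15:101266596-101266845 on the plus strand for Nr4a1, chr2:57124004-57124253 on the minus strand for Nr4a2 and chr4:48045055-48045152 on the plus strand for Nr4a3. The Nr4a1 window lies inside the annotated span of the gene, before a start that RefSeq lists there.
Nr4a1: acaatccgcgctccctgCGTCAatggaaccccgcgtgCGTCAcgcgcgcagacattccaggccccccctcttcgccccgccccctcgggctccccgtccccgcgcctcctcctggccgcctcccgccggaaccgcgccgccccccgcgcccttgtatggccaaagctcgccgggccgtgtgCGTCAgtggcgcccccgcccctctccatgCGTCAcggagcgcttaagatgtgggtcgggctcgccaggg
Nr4a2: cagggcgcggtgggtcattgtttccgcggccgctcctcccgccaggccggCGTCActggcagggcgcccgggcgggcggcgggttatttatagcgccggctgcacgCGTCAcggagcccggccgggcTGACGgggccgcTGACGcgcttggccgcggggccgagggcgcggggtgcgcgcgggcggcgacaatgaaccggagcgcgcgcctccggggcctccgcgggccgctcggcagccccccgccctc
Nr4a3: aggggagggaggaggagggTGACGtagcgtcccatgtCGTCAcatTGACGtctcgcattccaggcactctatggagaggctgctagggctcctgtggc

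In the full window of 250 bases before the start, each of the 3 NR4A promoters held 4 matches. Of the Nr4a3 matches, 3 lie in the stretch printed. Among all 32851 promoter windows of this length, 17.8% held at least 1 match and 0.137% held at least 4. Among the 56 windows of the 37 members found in the RefSeq table, 12 held at least 1 match, and the NR4A windows were the 3 that held 4. The motif was chosen after the members were known, and a match is a description of the letters only.

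The second set shows 3 classes of member that recur below, with every CG dinucleotide (CpG) in capitals. Rxra was expressed, Esrrg was not detected by the rule given below and carried a value for the repressive histone mark H3K27me3, and Nr1i2 had 0 counts and no such value. The windows are chr2:27676951-27677200 on the plus strand for Rxra, chr1:187651991-187652240 on the plus strand for Esrrg and chr16:38294825-38295074 on the minus strand for Nr1i2. Where a gene has several starts in the RefSeq table, the window with the most CpG is shown.
Rxra: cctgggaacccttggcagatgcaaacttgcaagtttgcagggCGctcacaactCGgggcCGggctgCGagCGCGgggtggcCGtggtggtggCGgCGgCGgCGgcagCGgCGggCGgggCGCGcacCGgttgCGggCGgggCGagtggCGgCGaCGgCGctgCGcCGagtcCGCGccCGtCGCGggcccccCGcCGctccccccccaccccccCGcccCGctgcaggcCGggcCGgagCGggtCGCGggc
Esrrg: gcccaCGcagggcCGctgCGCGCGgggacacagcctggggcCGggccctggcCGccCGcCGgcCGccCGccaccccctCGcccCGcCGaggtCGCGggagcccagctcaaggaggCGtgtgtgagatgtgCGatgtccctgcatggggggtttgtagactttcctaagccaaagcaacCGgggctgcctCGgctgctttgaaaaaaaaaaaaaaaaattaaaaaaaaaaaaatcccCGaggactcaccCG
Nr1i2: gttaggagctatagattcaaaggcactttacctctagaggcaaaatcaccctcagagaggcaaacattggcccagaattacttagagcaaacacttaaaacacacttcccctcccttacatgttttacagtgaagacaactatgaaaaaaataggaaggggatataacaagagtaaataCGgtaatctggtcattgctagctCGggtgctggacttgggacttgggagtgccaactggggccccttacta

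The Rxra window held 40 CpG, the Esrrg window 22 and the Nr1i2 window 2. Esrrg, level with Nr2f1, had the most CpG of the members with an H3K27me3 value. Nr1i2 had the fewest of the undetected members without one, so these examples are not typical of their classes. Over the 20 expressed members with a window, the median was 21 CpG in 250 bases, against 17 over all 8840 expressed genes. Over the 10 members with an H3K27me3 value the median was 6.5 CpG, and over the 7 undetected members without one that have a window it was 5. The corresponding medians over all genes that were not expressed were 12 with an H3K27me3 value and 3 without. The windows depend on the starts listed, and the single window listed for Nr2f2 held 1 CpG.

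Total counts came to 29283936 for replicate 1, 35264901 for replicate 2 and 39198620 for replicate 3. Replicate 1 stood apart, with 59.8% of all detected genes highest in it, and values without it are given for the members that reached 1 TPM in any library and whose mean it moved by over 1.5 times.

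The family was split between a set of well-expressed receptors and a set near the lower end of the measurement. A gene was counted as detected when it had at least 1 TPM (the usual length-corrected transcript unit, with every library brought to one total) in all 3 libraries. By this rule 21 of the 40 members were detected, and 27% of all entries and 52.2% of protein-coding genes were. Another 18 members stayed below 1 TPM in every library, and 6 of these had 0 counts in all 3. The remaining member, Rarb, passed 1 TPM in replicate 1 only. The median over the 40 members was 1.37 ± 0.319 TPM (SD, n = 3), beside a median of 0 over all entries. Over the 21 detected members it was 18.0 ± 2.68 TPM, and over all detected genes 17.4 ± 2.54 TPM.

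**Figure D1:**
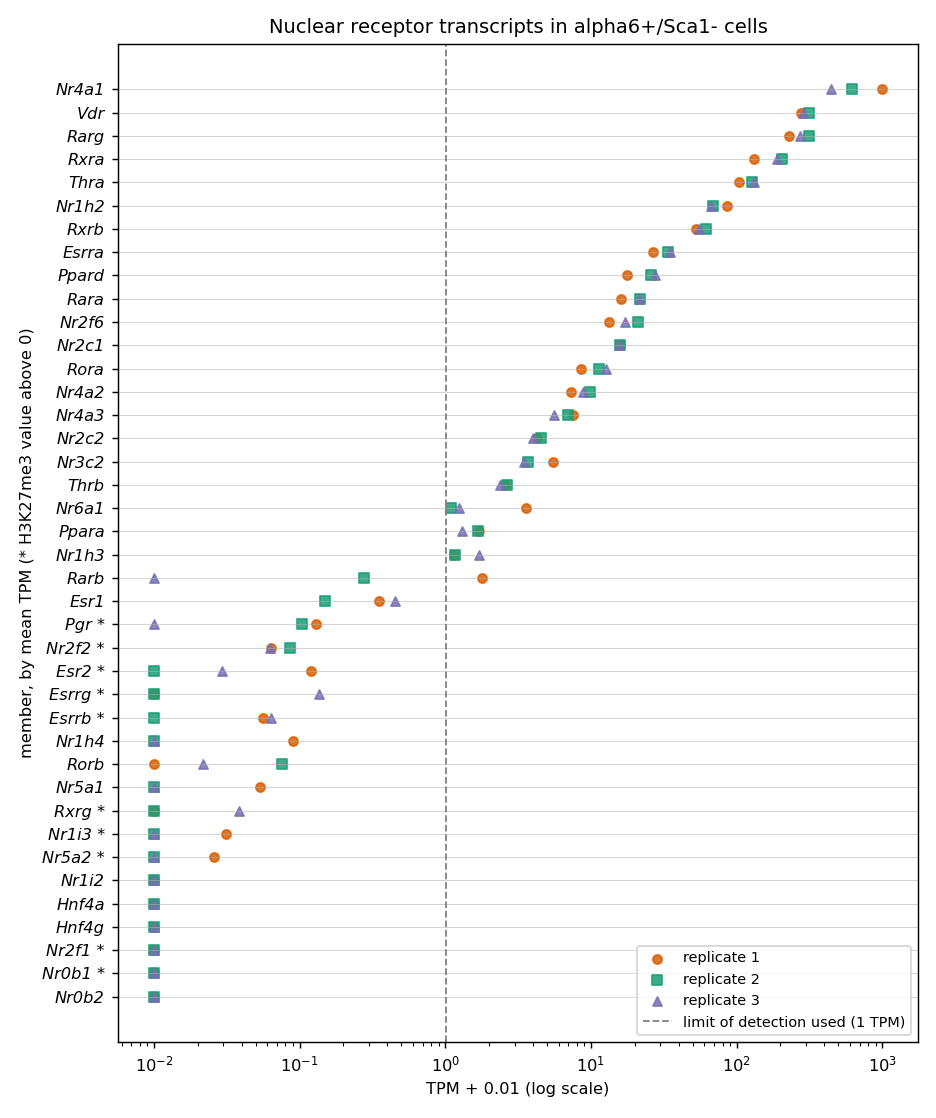
Level of each of the 40 nuclear receptors in the 3 libraries, as TPM + 0.01 on a log axis, with members ordered by mean TPM and an asterisk where the H3K27me3 value is above 0. Nr4a1 lies highest with 443 to 996 TPM, the 21 detected members lie right of the dashed line at 1 TPM in all libraries, and every asterisk lies left of it.

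The receptors counted as partners of RXR were led by the vitamin D receptor and by retinoic acid receptor gamma. Vdr lies on GRCm38 chromosome 15 at 97854425 to 97910630, minus strand. Its 3 libraries, replicates 1, 2 and 3, gave 277, 314 and 283 TPM, a mean of 291 ± 19.9 (SD, n = 3). Rarg (chromosome 15, 102234938 to 102257517, minus strand), the retinoic acid receptor gamma, had 228, 313 and 273 TPM, a mean of 271 ± 42.5. The ranges of Vdr and Rarg overlapped, so their order is not larger than the spread between libraries. Both lay among the upper levels of detected genes, with mean levels above 96.7% and 96.4% of them.

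Thyroid hormone receptor alpha followed. Thra (chromosome 11, 98740638 to 98769006, plus strand) had 104, 128 and 131 TPM, and its range met neither that of Rxra just above it nor that of Nr1h2 just below. The related Thrb had 2.58, 2.63 and 2.38 TPM. Nr1h2, the LXR beta oxysterol receptor (chromosome 7, 44549616 to 44553951, minus strand), had 85.7, 69.0 and 66.8 TPM, while Nr1h3, LXR alpha, had 1.14, 1.16 and 1.70 TPM. The mean of Thra was 47.8 times that of Thrb, and the mean of Nr1h2 was 55.3 times that of Nr1h3.

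The fatty acid receptor Ppard had 17.6, 25.97 and 27.3 TPM, and Ppara had 1.69, 1.66 and 1.28 TPM. Rara, the alpha retinoic acid receptor, had 16.05, 21.9 and 21.5 TPM. In the order of means, Esrra, Ppard, Rara, Nr2f6 and Nr2c1 followed one another with ranges that overlapped from neighbour to neighbour, so their order is not resolved. Rora, a receptor that binds DNA as a monomer and acts in the circadian clock, had 8.57, 11.4 and 12.7 TPM, and its relative Rorb had 0, 10 and 2 counts, a mean of 0.0259 TPM. The bile acid receptor Nr1h4 and the xenobiotic receptors Nr1i2 and Nr1i3, all best known from liver and gut, had at most 2 counts in any library.

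Rarb, the beta retinoic acid receptor, was the member that varied most among those with a mean above 0.5 TPM. It had 58, 11 and 0 counts, or 1.77, 0.265 and 0 TPM, and without replicate 1 its mean fell from 0.679 to 0.132 TPM. Of its annotated exon bases 34.1% are shared with exons of Top2b on the opposite strand, a gene at 67.6 TPM. Whether the counting used strand was not stated. In replicate 3 Rarb had 0 counts while Top2b had 62.5 TPM, and the part of Top2b in the counts of Rarb was not tested.

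RXR itself was present mainly as Rxra. Rxra (chromosome 2, 27676440 to 27762957, plus strand) had 131, 204 and 189 TPM, Rxrb had 52.6, 62.1 and 55.1 TPM, and Rxrg had 1 count in the 3 libraries together. Rxra made up 75.2% ± 3.29 of the summed RXR level (SD, n = 3). The 13 members counted as partners of RXR were the thyroid, retinoic acid, vitamin D, LXR, bile acid and xenobiotic receptors with Ppara and Ppard. The NR4A receptors were not counted among them, so the partner sums and shares leave out Nr4a1, at a mean of 687 TPM. The 13 summed to 735, 878 and 808 TPM, against 184, 267 and 244 TPM for the 3 RXR genes. The ratio of partner to RXR transcripts was therefore 4.00, 3.29 and 3.31, a mean of 3.53 ± 0.401. Vdr held 36.2% ± 1.31 and Rarg 33.5% ± 2.34 of the partner sum, Thra 15.0% ± 1.06 and Nr1h2 9.27% ± 2.08. Among the retinoic acid receptors alone, Rarg held 92.9% ± 0.391. These sums count transcripts and not proteins, and they were put together after the levels were known.

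**Figure D2:**
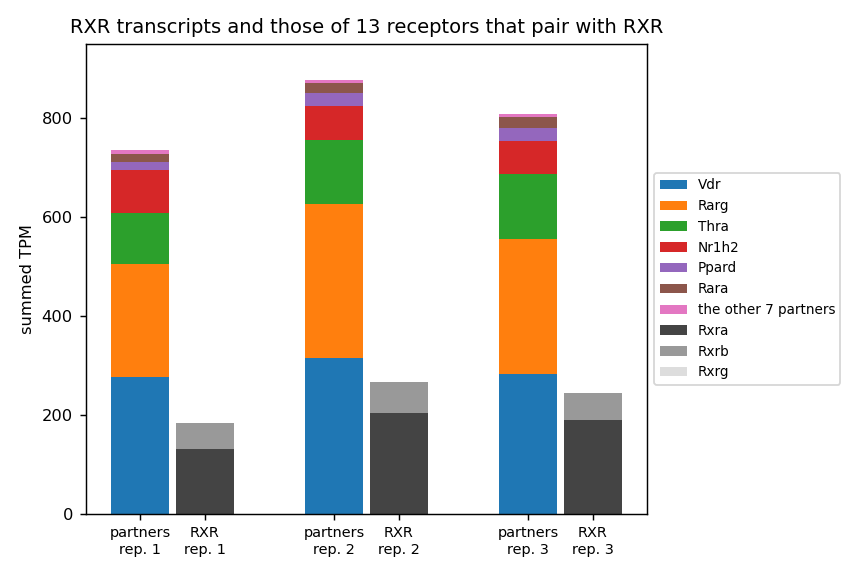
Summed TPM of 13 receptors that pair with RXR (coloured bars) and of the 3 RXR genes (grey bars) in each library. The partner bars reach 735, 878 and 808 TPM and the RXR bars 184, 267 and 244 TPM, and Vdr with Rarg fill most of each partner bar.

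Members of the same receptor group were compared within each library as 14 pairs, on the log2(TPM + 1) scale, which understates differences of low genes. Thra exceeded Thrb by 5.10 ± 0.21 (SD, n = 3), Nr1h2 exceeded Nr1h3 by 5.00 ± 0.34, and Ppard exceeded Ppara by 3.26 ± 0.43. Rarg exceeded Rara, with a difference of Rara minus Rarg of -3.71 ± 0.09. Rxra exceeded Rxrb by 1.59 ± 0.25 and Nr2c1 exceeded Nr2c2 by 1.67 ± 0.07, the smallest differences among pairs with both genes detected. The difference between Nr2c1 and Nr2c2 rests on length, since it was 0.18 on CPM (counts per library total, not per length). For Nr2f2 against Nr2f1 the sign was fixed by any count of Nr2f2, as Nr2f1 had 0 counts. In each of the other 13 pairs the 3 libraries had the same sign and gave a two-sided exact sign-flip permutation p = 0.25 (Benjamini-Hochberg adjusted 0.25), the smallest that 3 libraries can give.

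The orphans of the RXR branch fell into detected and undetected genes. Nr2c1 and Nr2c2, the testicular receptors TR2 and TR4, had 15.9, 15.9 and 15.6 TPM and 4.26, 4.56 and 3.98 TPM. Nr2c1 varied less between libraries than any other detected member, with an SD of 1.16% of its mean. Nr2f6, a COUP-TF related repressor, had 13.3, 21.0 and 17.2 TPM, with its highest level in replicate 2. Its relatives Nr2f1 and Nr2f2, the COUP transcription factors, had 0 counts in every library and 5, 9 and 7 counts. A count of 0 for Nr2f1 allows up to 0.0586 TPM. Hnf4a and Hnf4g, regulators of liver and gut genes, had 0 counts in all 3 libraries.

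Some of these members share exon bases with other genes. Of the exon bases of Nr2f6, 54.4% are shared with Ocel1 on the opposite strand (6.70 TPM), and of those of Nr2c2, 30.7% with Mrps25 (9.61 TPM). Nr1i3 shares 74.9% with Tomm40l (3.94 TPM), yet it had 1 count in all. Thra shares 5.70% of its exon bases with Nr1d1 on the opposite strand, which had 276 TPM. The part of these neighbours in the members' counts was not tested.

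Among the steroid receptors and the oestrogen-related receptors, 2 of 7 were detected. Esrra, an orphan known for its role in mitochondrial genes, had 26.7, 34.0 and 35.0 TPM (mean 31.9 ± 4.52, SD, n = 3). Nr3c2, the mineralocorticoid receptor, had 5.47, 3.71 and 3.45 TPM, highest in replicate 1. The oestrogen receptor Esr1 had 50, 26 and 93 counts, a mean of 0.307 ± 0.154 TPM, and was the highest of the members that stayed below the limit in every library. Esr2 had 4, 0 and 1 counts, and the progesterone receptor Pgr had 11, 11 and 0. Esrrb had 3, 0 and 5 counts, and Esrrg had 0, 0 and 12. In whole cell populations such as these, fewer cells with a transcript and less transcript per cell cannot be told apart.

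The NR5, NR6 and NR0 receptors were low. Nr6a1, known as germ cell nuclear factor, had 3.57, 1.09 and 1.24 TPM from 416, 161 and 207 counts, so replicate 1 stood above both others. Without replicate 1 its mean fell from 1.96 to 1.16 TPM. The steroidogenic regulator Nr5a1 had 2, 0 and 0 counts and Nr5a2 had 1, 0 and 0. Nr0b1 and Nr0b2, which lack the usual DNA-binding domain and act as corepressors, had 0 counts in all libraries.

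Nr4a1 (chromosome 15, 101254269 to 101274795, plus strand) was the most abundant member and the one whose level varied most among those above 10 TPM, with an SD of 41.0% of its mean. It had 996, 622 and 443 TPM from 26558, 21074 and 16914 counts, a mean of 687 ± 282 (SD, n = 3). It thereby held 49.6%, 33.2% and 27.7% of the summed TPM of the 40 members in replicates 1, 2 and 3. Nr4a2 had 7.25, 9.88 and 8.83 TPM and Nr4a3 had 7.58, 6.98 and 5.54 TPM, so the other NR4A receptors lay far below it. Nr4a1 exceeded Nr4a2 by 6.09 ± 0.74 and Nr4a3 by 6.41 ± 0.40 on the log2(TPM + 1) scale, in 3 of 3 libraries. The deposited length of Nr4a1 is 2474 bases and its exons in GENCODE M21 cover 3509, at which its TPM would be lower.

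Immediate early genes, which cells also induce while tissue is taken apart, moved in the same order. Their list of 14 genes was detected in full and summed to 27525, 17759 and 12737 TPM. Of the 14, 12 were highest in replicate 1 and lowest in replicate 3, and 33.3% of all detected genes had this order. It was also the order of 6 of the 21 detected receptors, Nr4a1, Nr4a3, Nr1h2, Ppara, Nr2c1 and Nr3c2, so it is not particular to the NR4A receptors. For Fos the libraries gave 10120, 5406 and 4269 TPM, and for Jun 3678, 1944 and 1179 TPM. Nr4a2, in contrast, was lowest in replicate 1. The part of cell handling in the level of Nr4a1 was not tested.

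**Figure D3:**
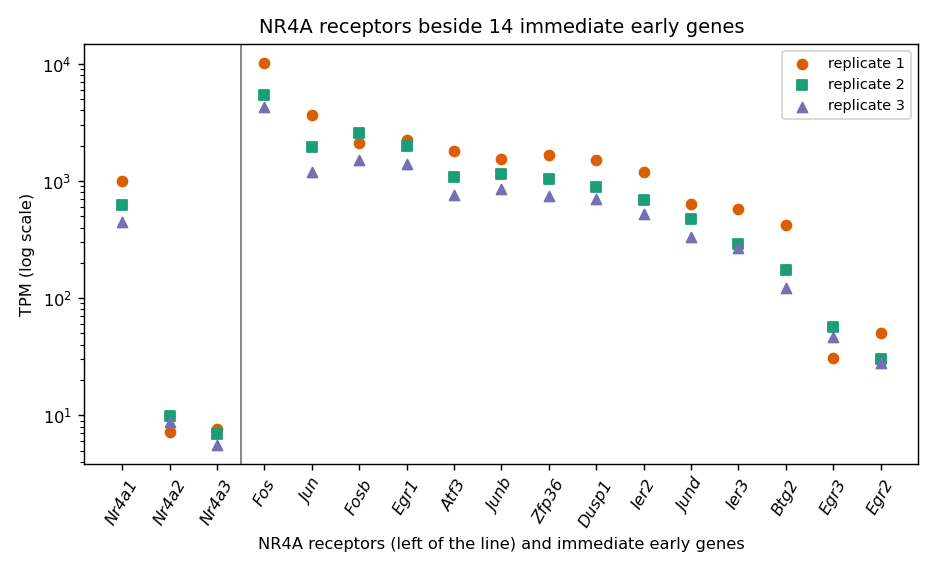
TPM (log axis) of the 3 NR4A receptors, left of the line, and of 14 immediate early genes in the 3 libraries. Nr4a1 runs from 443 to 996 TPM with replicate 1 on top, as do 12 of the 14 immediate early genes, while Nr4a2 and Nr4a3 stay under 10 TPM.

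Replicate 1 stood apart from the others over all genes, and most of the detected receptors were lowest in it. Of all 12049 detected genes, 59.8% were highest in replicate 1 and 25.8% were lowest there. Of the 21 detected receptors, 7 were highest in replicate 1 (33.3%) and 12 were lowest (57.1%). The 12 were Nr2f6, Esrra, Rxrb, Rarg, Thra, Ppard, Nr1h3, Rxra, Rara, Vdr, Nr4a2 and Rora. Replicate 2 held the highest value of 9 receptors (42.9%, beside 20.3% of all detected genes) and replicate 3 of 5 (23.8%, beside 19.9%). The lowest value was in replicate 2 for 1 receptor (4.76%, beside 33.4%) and in replicate 3 for 8 (38.1%, beside 40.9%). The median log2 difference of replicate 1 from the mean of the others was -0.15 over the detected receptors and 0.21 over all detected genes. Scaling the libraries with edgeR's TMM factors lowered the median of replicate 1 against the others over all genes from 0.23 to 0.06 on the log2 scale of TPM, and the share of all genes lowest in replicate 1 became 37.3%. With that scaling 15 of the 21 receptors were lowest in replicate 1. Whether the family differs from other genes in this was not tested.

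A difference of more than 1 on the log2 scale in replicate 1 against both others was rare in the family. Among the 21 members with a mean of at least 1 TPM, 1 was higher by that much in replicate 1 (Nr6a1) and 0 were lower. Over all 13664 genes at that level, 10.6% were higher and 2.26% lower. With TMM factors or DESeq2 size factors, 0 members passed this difference, so the call on Nr6a1 depends on the scaling.

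A further column of the authors' deposited table is headed H3K27me3, the trimethylation of histone H3 that Polycomb complexes lay down and that marks repressed genes. Its whole numbers come with no unit or source cells stated, and they are the authors' own. Among the 40 members 10 had more than 0 there, in the authors' deposited table, where 8.06% of all entries and 11.2% of protein-coding genes did. None of the 10 was detected, and the highest mean among them was 0.0711 TPM, for Pgr. Without replicate 1 the mean of Pgr was 0.0470 TPM and lay below that of Nr2f2, at 0.0644 TPM. Of the 30 members with a value of 0, 21 were detected (70.0%). Over all protein-coding genes, 13.8% of 2399 with a value above 0 were detected and 57.1% of 19027 with a value of 0.

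The COUP transcription factors had the largest values. In the authors' deposited table Nr2f2 (chromosome 7, 70351944 to 70366735, minus strand) had an H3K27me3 value of 96065, and 48 of the 44625 entries had a larger one. Nr2f1 (chromosome 13, 78188973 to 78199757, minus strand) had 48131, with 198 entries above it. Their neighbours carried the same number, B130024G19Rik and Gm28258 for Nr2f2 and A830082K12Rik for Nr2f1, so the values are not each gene's own. None of these neighbours was detected, with at most 0.0393 TPM in any library.

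The other 8 values ranged more widely. Nr1i3 had 27685, shared with Pcp4l1 at a distance of 17702 bases, and Nr5a2 had 24169. Esrrg had 13210 and Rxrg 8663, both above the median of 7593 over all entries with a value. Pgr had 5332, Nr0b1 3529, Esrrb 3002 and Esr2 930. In contrast, Hnf4a, Hnf4g, Nr1i2 and Nr0b2 had 0 counts in every library and an H3K27me3 value of 0.

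**Figure D4:**
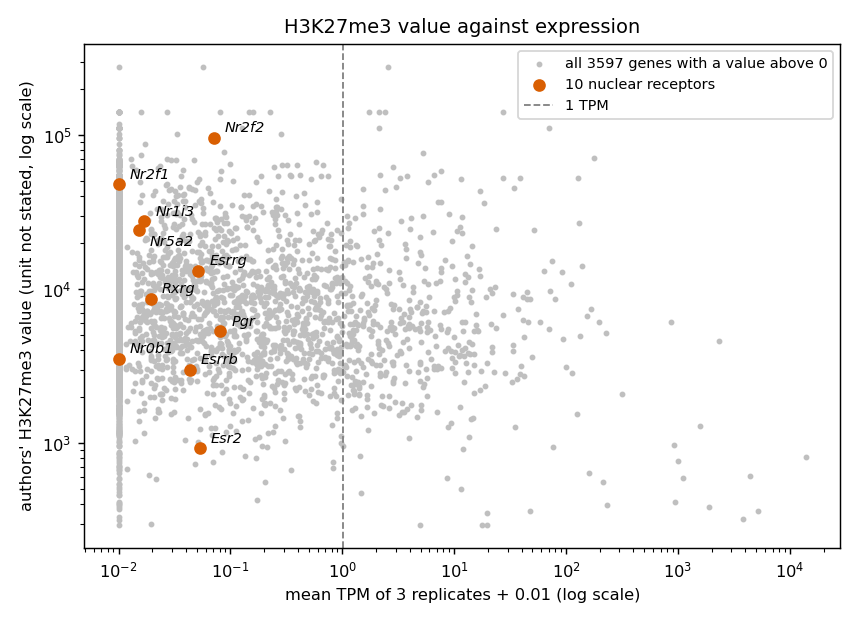
The authors' H3K27me3 value (log axis, unit not stated) against mean TPM of the 3 libraries + 0.01 (log axis), for all 3597 entries with a value above 0 in grey and the 10 nuclear receptors among them in orange. All 10 lie left of 1 TPM, at means of 0.0711 TPM or less, with Nr2f2 at 96065 near the upper end.

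The undetected receptors can be set beside marker genes of other cell types. The 7 hair follicle stem cell markers were all detected and summed to between 21274 and 27537 TPM, as were the 4 basal keratinocyte (19591 to 28870 TPM) and the 4 upper follicle markers (314 to 397 TPM). Of 4 liver and gut markers, the usual company of Hnf4a and Nr1i2, 0 were detected, Alb was at 0, and their sum lay between 0.141 and 1.18 TPM. Of 4 endothelial markers, Cdh5, Cldn5 and Emcn were at 0, and of 6 fibroblast markers 2 were detected (Col1a1 and Col1a2), with sums of 18.0 to 45.3 TPM and Lum at 0. Of 6 sebaceous gland markers 4 were detected, with sums of 176 to 272 TPM, and 3 of these peaked in replicate 3. Among the 21 detected receptors 5 peaked there (Esrra, Thra, Ppard, Nr1h3 and Rora), which is 23.8%, near the 19.9% of all detected genes. The 4 suprabasal markers summed to 1647 TPM in replicate 1 and 5014 in replicate 3. Of 4 melanocyte markers 2 were detected (11.5 to 14.6 TPM summed), and of 5 immune markers 2 (10.2 to 19.6 TPM). The part of these cells in the receptors' levels was not tested.

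The fold changes in the authors' deposited table were read as integrin alpha6-positive, Sca1-negative libraries over Bulge libraries, since all 2555 genes with 0 counts here had negative ones. Of the 40 members, 30 had an adjusted p there, and 8 were higher and 9 lower with an adjusted p under 0.05. These are 26.7% and 30% of the 30, beside 23.6% and 32.0% of all 20274 genes with an adjusted p, so neither share stands far from that of all genes. The median log2 fold change in the authors' deposited table was -0.61 over the 30 members and -0.36 over all 20274.

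The receptors called higher included 4 of the RXR partners counted above and 1 RXR gene. Among the partners, the authors' deposited table gave Rarg a log2 fold change of 2.17 (adjusted p = 1.26e-14), Nr1h2 2.15 (1.51e-11), Thra 1.40 (3.11e-07) and Ppard 0.67 (0.04996, just under the threshold). Rxrb had 2.41 (adjusted p = 7.78e-18) in the authors' deposited table, while Rxra had 0.27 (0.431) and Vdr -0.14 (0.589), neither of which passed. The largest positive values in the authors' deposited table were 4.81 for Nr2f6 (4.72e-17), a gene with 54.4% of its exon bases shared with Ocel1, and 3.43 for Esrra (2.97e-13). Vdr and Rxra, among the 4 most abundant members, thus had no called difference.

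Lower in the authors' deposited table were Nr2c2 with -2.14 (adjusted p = 6.44e-21), Rora with -2.18 (1.17e-15), Nr3c2 with -1.67 (6.15e-11), Nr6a1 with -1.65 (9.68e-05), Thrb with -0.91 (0.00770) and Nr2c1 with -0.80 (0.00235). Nr1i2 was called lower too, and as it had 0 counts in all 3 libraries used here the size of its fold change is not interpretable. The NR4A receptors were split in the authors' deposited table, with 1.87 for Nr4a1 (6.62e-14) against -2.32 for Nr4a2 (3.84e-10) and -1.74 for Nr4a3 (9.76e-09). None of the 10 members with an H3K27me3 value was called there, beside 23.6% higher and 32.0% lower of all genes with an adjusted p. Of the 10, 6 had no adjusted p, and all had means of 0.0711 TPM or less. The lack of calls is therefore not read as a result about the mark.

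Gene length and base composition moved with these fold changes. The 8 members called higher had a median length of 3526 bases and the 9 called lower 6474, and over all genes in the authors' deposited table the medians were 2818 and 3700. The median share of G and C in the longest transcript was 59.3% for the 8 and 47.5% for the 9, against 53.9% and 45.5% over all genes called higher and lower. Across the 21 detected members, Spearman's rho of the deposited log2 fold change was -0.713 with length and 0.790 with G and C, and across all detected genes with both values it was -0.505 (12040 genes) and 0.559 (12027 genes). Genes are not replicates, the points share the same libraries, and no p is given. The part of length and base composition in the fold changes was not tested.

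**Figure D5:**
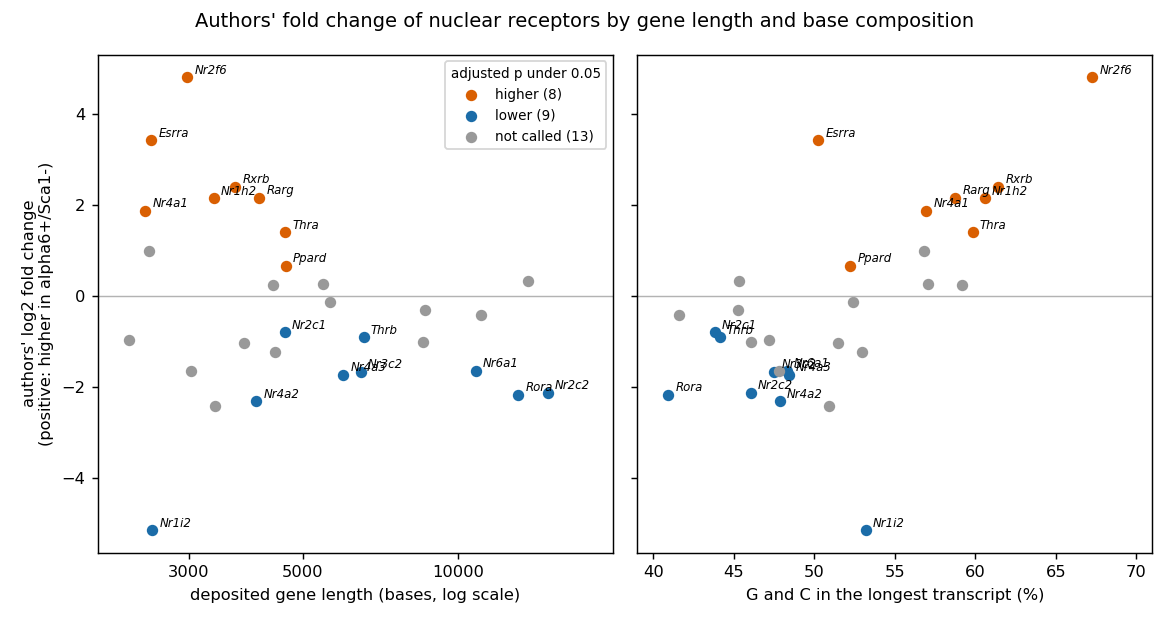
Log2 fold change from the authors' deposited table for the 30 receptors with an adjusted p, against deposited gene length (left, bases, log axis) and the G and C share of the longest transcript (right, %). The 8 receptors called higher (orange) have a median length of 3526 bases and the 9 called lower (blue) 6474, with median G and C shares of 59.3% and 47.5%.

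Co-regulators, the proteins through which receptors act on chromatin, were broadly expressed. Of 16 listed genes 15 were detected, beside 52.2% of protein-coding genes, with a median of 18.7 TPM. Hr, the Hairless corepressor of the vitamin D and thyroid hormone receptors, led the list with 356, 456 and 419 TPM (mean 411 ± 50.6, SD, n = 3), above the mean of Vdr itself. The coactivator Ppargc1a, with 1.06 ± 0.419 TPM, fell below the limit in 1 library. Of the 16, the authors' deposited table had 2 higher (Hr with a log2 fold change of 1.64 and Hdac3 with 1.37) and 11 lower, where 23.6% of all genes were higher and 32.0% lower.

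Genes that make, bind and degrade retinoids were detected in part, 8 of 16 with a list median of 2.06 TPM. Of all protein-coding genes 52.2% were detected. Cyp26b1, which degrades retinoic acid, had 44.9, 72.0 and 84.0 TPM, and Dhrs3, which turns retinaldehyde back to retinol, had 60.8, 68.7 and 59.6 TPM. The binding proteins Crabp1 and Crabp2 had 44.9 ± 15.5 and 43.5 ± 3.49 TPM. The enzymes that make retinoic acid were low, with a mean of 1.59 TPM for Aldh1a1 and 0.387 for Aldh1a2. Aldh1a3 had 0.482, 0.0316 and 0.0140 TPM, so its level came mainly from replicate 1. The authors' deposited table gave 7 of the 16 a nonzero H3K27me3 number, beside 11.2% of protein-coding genes, and Crabp1, with 8676, was the detected one. The lowest of the list was Cyp26c1, a relative of Cyp26b1, with 0 counts. Of the 13 with an adjusted p in the authors' deposited table, 6 were higher and 1 was lower, beside the same 23.6% and 32.0% of all genes.

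For thyroid hormone and vitamin D, 5 of 13 listed genes were detected, beside 52.2% of protein-coding genes, with a list median of 0.516 TPM. Klf9, a known target of the thyroid hormone receptors, led the list with 73.4 ± 13.6 TPM. The deiodinases Dio1 and Dio3 had 0 counts, and Cyp24a1, the best known target of the vitamin D receptor, had 0, 0 and 5 counts beside a Vdr level of 291 TPM. Of the 7 with an adjusted p, the authors' deposited table had 2 higher and 3 lower, beside 23.6% and 32.0% of all genes.

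Of the listed targets of LXR and PPAR receptors, 11 of 12 were detected, beside 52.2% of protein-coding genes, with a median of 34.6 TPM. Cpt1a, which brings fatty acids into mitochondria, had 57.8 ± 5.79 TPM, and Srebf1, a regulator of lipid synthesis, had 42.4, 67.2 and 61.6 TPM. The authors' deposited table had 8 of the 12 higher and 1 lower, the cholesterol exporter Abca1 with -0.94, beside 23.6% and 32.0% of all genes. The lowest of the list was Abcg1, another cholesterol exporter, with 1.09 ± 0.416 TPM. The lists of this pathway were drawn up with earlier results of these data known, and their counts are descriptions.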

How the data were processed

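RNA of 3 libraries from 1 group was analysed, with totals of 29283936 to 39198620 counts. The authors deposited whole-number counts per gene, unnormalized per the file headers, and TPM values, which equal counts divided by the deposited gene length and scaled to one common total. The submitters' processing notes name FastQC, SAMtools, TopHat2, DESeq2 and DESeq and the builds mm10 and GRCm38. The counting tool, its annotation and strand setting are not given in the sources used here. The authors also deposited a log2 fold change, an adjusted p-value and a score per gene, per the file headers, and no tool is named there. An H3K27me3 number per gene came in the same table. Another 6 columns of per-sample values match no sample and were not used.

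Coordinates, strands and exon overlaps came from GENCODE M21 (GRCm38) by gene identifier. The deposited length equalled the M21 exon length for 32 of 40 members and differed for 8, Nr4a1 and Esrra among them, which bears on their TPM. A limit of 1 TPM, a pseudocount of 1 and an adjusted p of 0.05 were used. For a count of 0, the limit given is what 3 counts would be in TPM, which covers counting error only. Members were compared within libraries by exact sign-flip permutation tests in Python 3.11.15. No contrast between groups was fitted, since there is 1 group. The rule that finds genes standing apart in replicate 1 was tested on simulated data. Scaling alternatives used edgeR 4.0.16 and DESeq2 1.42.0. All 40 members are accounted for, with every library's value given for those that reached 1 TPM in any library and counts for the rest. Of the pathway lists (co-regulators, retinoid, thyroid hormone and vitamin D, LXR and PPAR targets, immediate early genes) the highest and lowest genes are named, except where a gene is not reported here, and other genes of these lists were named after their values were seen. Members, lists and tests were chosen with earlier results of these data known.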

Additional observations from a re-analysis of the deposited data

How the results depend on the processing

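The number of detected members was 21 with a limit of 0.5 TPM, with either scaling and without any 1 replicate, 15 with a limit of 5 TPM and 22 with a limit of 10 counts. The median member level was 18.0 TPM over members with a mean of at least 1 TPM in place of all 40. The number of members higher in replicate 1 was 0 with TMM factors, 0 with DESeq2 size factors and 2 without the filter on low values, which adds Rarb. With the H3K27me3 value required to reach the median of all values above 0, 6 members remained of 10. The number of members higher in the authors' comparison was 7 with an adjusted p under 0.01, 7 with a log2 fold change of at least 1, and 7 without members that share over 20% of their exon bases with another gene, an alternative chosen after seeing the data. The number lower was 9, 7 and 8 under the same alternatives. All 14 pair differences kept their sign with a pseudocount of 0.1, with CPM (counts per library total, not per length) in place of TPM and without any 1 replicate, but not their size. On CPM, Nr2c1 minus Nr2c2 went from 1.67 to 0.18, Rora minus Rorb from 3.52 to 5.63 and Nr2f2 minus Nr2f1 from 0.09 to 0.26. With a pseudocount of 0.1, differences from genes near 0 grew, as in Esrra minus Esrrg from 4.97 to 7.92, Rora minus Rorb to 6.46 and Nr2f2 minus Nr2f1 to 0.68, and Nr2f2 minus Nr2f6 went from -4.08 to -6.72. No paired analysis was possible because the labels give 1 group.

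With 3 libraries, the exact sign-flip permutation test cannot go below p = 0.25, and the levels of members with a few counts are limited by depth. The authors' fold changes could not be refitted, so their dependence on single libraries or scaling was not examined.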

Other observations

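The authors' deposited table combines the H3K27me3 value and the expression comparison in 1 score per gene. The highest-ranked receptor by that score was Nr2f6, at rank 745 of 20274, followed by Esrra at 1087 and Rxrb at 1123 in the authors' deposited table. All 3 had an H3K27me3 value of 0. The receptors with the lowest scores in the authors' deposited table were Nr1i3 at rank 19930, Esr2 at 19750, Nr2f2 at 19740 and Pgr at 19713. Each of these 4 had a value above 0 and an adjusted p of at least 0.0865, so large negative scores occurred without a called difference in expression.

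Among the other pathway genes, Crabp1 combined expression with an H3K27me3 value. Crabp1, a retinoic acid binding protein, had 28.1, 58.6 and 47.9 TPM, lowest in replicate 1, with a value of 8676 in the authors' deposited table. Egr2, of the immediate early list, had 36.3 ± 12.3 TPM (SD, n = 3) with a value of 2616 in the authors' deposited table.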
